A study of Mus musculus with 6 samples.

Results

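Interferon-stimulated genes, a set of 33 transcripts that cells switch on when type I interferon reaches them, were followed across colon tumours of Trim21 knockout and wild-type mice. The 33 genes were listed by symbol, and all 33 were found among the 26214 gene rows of the deposited count tables. The tested group was tumour tissue of Trim21 -/- mice (3 libraries) and its counterpart was tumour tissue of Trim21 +/+ mice (3 libraries). All mice of both genotypes had received azoxymethane, a colon carcinogen, together with dextran sulfate sodium, which injures the colon lining, so there was no untreated group. The labels state no strain, age or sex, nor the allele behind the knockout. The samples are labelled as biological replicates without saying that each came from its own mouse, so p-values reflect only the spread among the samples. Libraries were made from ribosome-depleted total RNA of whole tumour tissue, and held 17937821 to 19987295 counts in the knockout and 27085599 to 29742757 counts in the wild type. The epithelial gene Epcam lay between 1297 and 1422 CPM (reads of a gene scaled to a library of 1000000 reads) in the knockout libraries and between 1315 and 1486 CPM in the wild-type libraries, so epithelial RNA was abundant in every library.

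Type I interferons bind the receptor pair IFNAR1 and IFNAR2, whose kinases JAK1 and TYK2 phosphorylate signal transducers such as STAT2. STAT2 and IRF9 are parts of the complex ISGF3, which binds interferon-stimulated response elements in promoters and turns on genes that block viral RNA, tag proteins with ISG15, or sense more viral nucleic acid. Interferon lambda reaches the same complex through another receptor that gut epithelium carries. TRIM21 is an ubiquitin ligase and antibody receptor of the cytosol that acts on interferon regulatory factors, and its own gene is interferon-inducible. Trim21 held 244, 345 and 248 reads in knockout 1 to 3, against 887, 601 and 527 reads in wild-type 1 to 3. This is 12.1, 18.9 and 12.8 CPM in the knockout and 29.8, 20.3 and 19.5 CPM in the wild type, so Trim21 reads were fewer but present in the knockout, and the exons these reads cover are not known from whole-gene counts. The log2 fold change of Trim21 was -0.67 (SE 0.24), which edgeR's quasi-likelihood test did not call (adjusted p = 0.418, Benjamini-Hochberg over all genes tested).

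ISGF3 acts through promoter sequence, and the stretches below are shown because they hold the core of its response element in genes whose levels followed each other from library to library. The core was searched on both strands as GAAA, any 2 bases, GAAA, whose reverse complement is TTTC, any 2 bases, TTTC. RefSeq promoter windows of 300 bases on GRCm38.p6, from 250 bases before to 50 bases after the start of transcription, were on hand for 23 of the 33 genes. At least 1 match was present in 11 of these 23 (47.8%), against 474 of 12641 other tested genes (3.75%) and 1131 of all 32851 windows (3.44%). Related lists held it as well, with a match in 14 of 27 other interferon-stimulated genes and in 5 of 9 genes known for induction by interferon gamma, against 0 of 8 receptors and kinases and 0 of 6 transcription factors, so the motif is not particular to the 33 genes. The stretches below run 5′ to 3′ on the strand of the gene, and capitals mark every match, which overlap one another in Isg15, Bst2 and Oas1a.
Isg15 (chr4:156200860-156200911, minus strand): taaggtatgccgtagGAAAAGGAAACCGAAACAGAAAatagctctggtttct
Ifit1 (chr19:34640770-34640828, plus strand): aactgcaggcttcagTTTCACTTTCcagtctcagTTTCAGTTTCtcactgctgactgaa
Ifit3 (chr19:34583358-34583431, plus strand): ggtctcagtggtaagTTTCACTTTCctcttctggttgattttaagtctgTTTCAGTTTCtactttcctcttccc
Oas1a (chr5:120907515-120907560, minus strand): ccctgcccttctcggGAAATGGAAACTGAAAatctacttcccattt
Bst2 (chr8:71537572-71537617, minus strand): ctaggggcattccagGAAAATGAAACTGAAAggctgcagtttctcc
Ddx60 (chr8:61928019-61928092, plus strand): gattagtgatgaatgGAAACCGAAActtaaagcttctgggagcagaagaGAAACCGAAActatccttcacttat
Rsad2 (chr12:26456548-26456587, minus strand): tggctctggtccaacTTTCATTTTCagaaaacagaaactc
The other genes with a match were Oas3, Eif2ak2, Ifih1 and Stat2. No match was found for Ifit2, Oasl1, Oasl2, Cmpk2, Isg20, Samd9l, Herc6, Parp12, Dtx3l, Ifi44, Xaf1 or Ifi35, which says only that these letters are not in these windows. The highest library exceeded the lowest by a median of 6.0-fold among the 11 genes with a match (range 1.76 to 12.1) and by a median of 3.37-fold among the 12 without (range 1.5 to 13.2), so the ranges overlapped.

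All 33 genes passed the filter on low counts, with at least 23 reads in every library and a mean over the 6 libraries from 6.41 CPM for Mx2 to 276 CPM for Samd9l. Per kilobase of merged exons, the mean level was highest for Samd9l at 50.9 CPM per kb, followed by Ifit3 at 42.1, Ifit1 at 34.4 and Dtx3l at 33.4 CPM per kb. It was lowest for Mx2 at 1.77 and Herc6 at 2.76 CPM per kb. On mm10 (GRCm38) the genes lie on 13 chromosomes, and several lie near another of the 33. On chromosome 19, 7.11 kb separate Ifit2 from Ifit3, and 52.1 kb separate Ifit3 from Ifit1. Oasl2 and Oasl1 lie 11 kb apart on chromosome 5, and Oas2 and Oas3 lie 3.24 kb apart on the same chromosome. Rsad2 and Cmpk2 point away from each other on chromosome 12 with 12.8 kb between them. Dtx3l and Parp9 on chromosome 16 overlap at their starts by 682 bases on opposite strands, and since the strand setting of the counting is not given, reads there cannot be assigned to either gene with certainty.

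**Figure D1:**
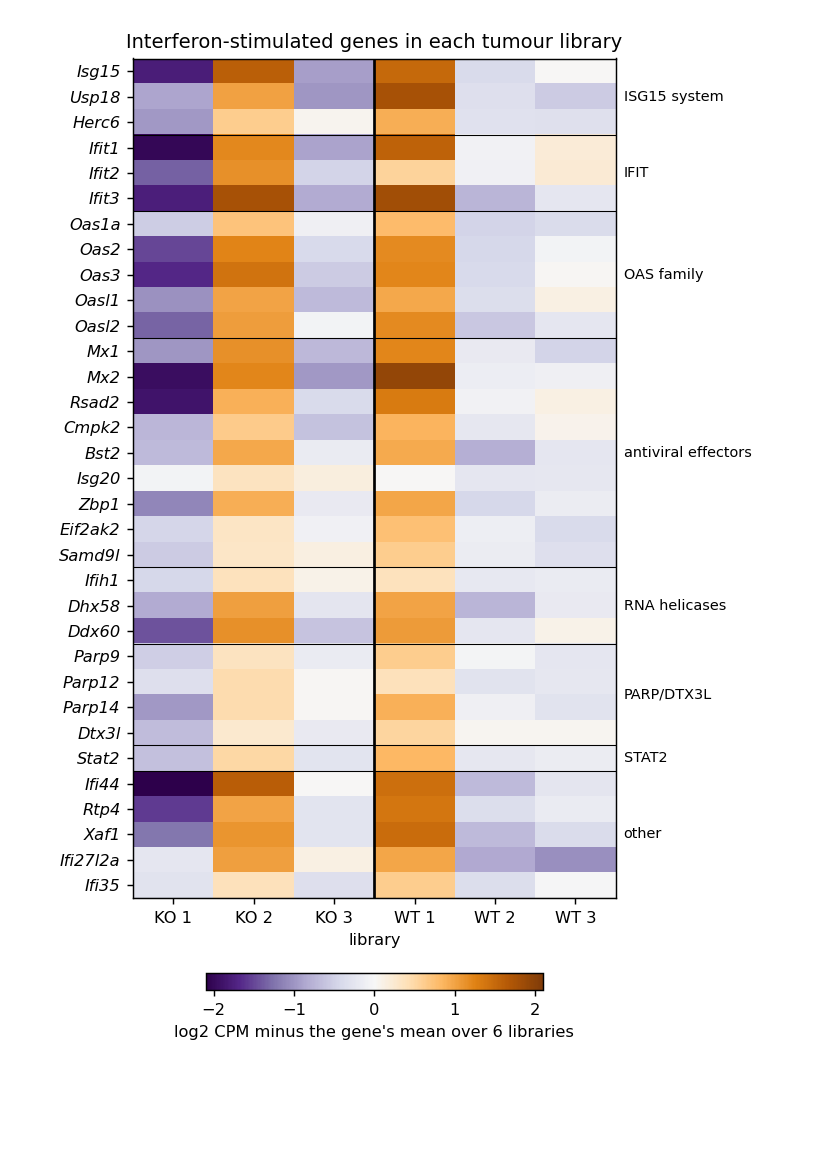
Level of each of the 33 interferon-stimulated genes in each library, as log2 CPM minus the mean of that gene over the 6 libraries; columns are 3 knockout (KO) and 3 wild-type (WT) libraries, rows are genes grouped by role. KO 2 and WT 1 are above the gene's mean for all 33 genes, and KO 1 is below it for all 33.

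The ISG15 system attaches a ubiquitin-like protein to other proteins. Isg15, the modifier itself, measured 3.37, 35.0 and 6.10 CPM in knockout 1 to 3, against 32.6, 8.77 and 11.7 CPM in wild-type 1 to 3. Usp18, the protease that removes ISG15 and also blunts interferon receptor signalling, measured 15.4, 56.7 and 14.1 CPM in the knockout, against 95.3, 22.4 and 19.2 CPM in the wild type. Knockout 2 and wild-type 1 stood high in both genes and the groups overlapped. The log2 fold change was -0.26 (SE 0.88) for Isg15 and -0.67 (SE 0.77) for Usp18, neither of which passed edgeR's test (adjusted p = 0.927 and 0.765). Herc6, the ligase that joins ISG15 to its targets in the mouse, had a log2 fold change of -0.18 (SE 0.47).

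The IFIT proteins bind foreign RNA ends and hold back its translation. Ifit1 measured 16.6, 155 and 36.1 CPM in knockout 1 to 3, against 199.6, 63.6 and 77.0 CPM in wild-type 1 to 3. Ifit2 measured 34.0, 192 and 63.2 CPM in the knockout, against 128, 81.8 and 102 CPM in the wild type. For both genes knockout 2 was the highest knockout library and wild-type 1 the highest wild-type library, while the 2 groups overlapped. The log2 fold change was -0.71 (SE 0.81) for Ifit1 and -0.11 (SE 0.57) for Ifit2 (edgeR adjusted p = 0.762 and 0.953). Ifit3 ran from 14.2 to 162 CPM among knockout libraries and from 28.5 to 169 CPM among wild-type libraries, with a log2 fold change of -0.23 (SE 0.99). Its neighbouring copy Ifit3b measured 9.77, 91.7 and 16.2 CPM in the knockout and 100.9, 21.1 and 26.2 CPM in the wild type. Reads of Ifit3 and Ifit3b may be shared between them, as the handling of reads that map to several places is not given in the sources used here.

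The oligoadenylate synthetase family makes a second messenger that activates RNase L, and the OAS-like proteins are relatives with roles in RNA sensing and its control. Oasl2 measured 36.7, 192 and 89.4 CPM in knockout 1 to 3, against 211, 62.0 and 79.0 CPM in wild-type 1 to 3. Oasl1 measured 12.7, 51.9 and 16 CPM in the knockout, against 50.7, 20.4 and 28.2 CPM in the wild type. In this family too each group had 1 high library, knockout 2 and wild-type 1. Oasl2 had a log2 fold change of -0.15 (SE 0.65) and Oasl1 of -0.30 (SE 0.57), with edgeR adjusted p of 0.944 and 0.868. Oas1a, Oas2 and Oas3 had log2 fold changes of 0.02, -0.20 and -0.17, and the highest knockout library exceeded the lowest 2.39-fold in Oas1a, 6.68-fold in Oas2 and 8.51-fold in Oas3. Oas1a has close copies such as Oas1g, so its count is uncertain in the same way as that of Ifit3, and Oasl1 shares exon sequence with Gm13822 on the opposite strand.

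The 9 antiviral effectors held both the widest and the narrowest range over the 6 libraries of the 33 genes, 14.7-fold for Mx2 and 1.5-fold for Isg20. Mx2 belongs to the dynamin-like antiviral GTPases, but the GENCODE annotation types it as a polymorphic pseudogene, a gene that is intact in some strains and not in others, and the strain here is not known. It measured 1.14, 10.3 and 2.22 CPM in knockout 1 to 3, against 16.7, 3.99 and 4.08 CPM in wild-type 1 to 3. Samd9l, an inhibitor of translation and the most abundant of the 33 genes, measured 181, 329 and 292 CPM in the knockout, against 407, 238 and 211 CPM in the wild type. Isg20, a 3′ exonuclease acting on RNA, measured 11.2, 14.7 and 12.9 CPM in the knockout, against 11.6, 9.82 and 9.90 CPM in the wild type. For Isg20, knockout 2 and knockout 3 were above all wild-type libraries while knockout 1 lay below wild-type 1, so the groups overlapped by that library. The log2 fold changes were -0.87 (SE 0.89) for Mx2, -0.09 (SE 0.30) for Samd9l and 0.30 (SE 0.17) for Isg20, with edgeR adjusted p of 0.735, 0.923 and 0.541. Isg20 had the smallest unadjusted p of the 33 genes, at 0.116 by the same test.

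Rsad2, which encodes viperin, a maker of a chain-terminating nucleotide, and its neighbour Cmpk2, a mitochondrial nucleotide kinase, had log2 fold changes of -0.67 (SE 0.66) and -0.42 (SE 0.43). Mx1 had -0.24, the virion tether Bst2 0.04, the Z-nucleic acid sensor Zbp1 -0.16 and the translation-blocking kinase Eif2ak2 -0.20. Zbp1 lay nearest to the average of the other 32 genes, at a root mean square difference of 0.0776 in mean-centred log2 CPM over the 6 libraries, and Isg20 lay farthest from it, at 0.669.

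The RNA helicases of the set sense double-stranded RNA or assist in it. Ifih1, which encodes the sensor MDA5, measured 69.9, 123 and 100.2 CPM in knockout 1 to 3, against 122, 81.7 and 83.6 CPM in wild-type 1 to 3. Ddx60 measured 9.57, 57.4 and 17.0 CPM in the knockout, against 53.9, 22.0 and 27.7 CPM in the wild type. The same 2 libraries were the highest for both genes, but the highest knockout library exceeded the lowest 6.0-fold in Ddx60 and 1.76-fold in Ifih1. Their log2 fold changes were -0.31 (SE 0.65) and 0.03 (SE 0.24), and that of Dhx58, the regulator LGP2, was -0.02 (SE 0.58).

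The ADP-ribosyltransferases Parp9, Parp12 and Parp14 and the PARP9 partner ligase Dtx3l were abundant and varied less. Dtx3l measured 116, 222 and 161 CPM in knockout 1 to 3, against 268, 190.1 and 189 CPM in wild-type 1 to 3. Parp12 measured 55.2, 95.5 and 71.4 CPM in the knockout, against 91.3, 57.4 and 59.98 CPM in the wild type. Stat2, the signal transducer of the set, measured 59.0, 131 and 76.5 CPM in the knockout, against 164, 79.3 and 83.0 CPM in the wild type. In each of these 3 genes knockout 1 was the lowest of the knockout libraries, knockout 2 the highest, and the groups overlapped. The log2 fold changes were -0.38 (SE 0.25) for Dtx3l, 0.09 (SE 0.25) for Parp12 and -0.29 (SE 0.37) for Stat2, with edgeR adjusted p of 0.596, 0.910 and 0.786. Parp9 and Parp14 had -0.23 (SE 0.28) and -0.32 (SE 0.42).

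Of the remaining genes, Ifi44, an interferon-induced cytoplasmic protein, varied most among the knockout libraries. It measured 5.51, 72.7 and 23.7 CPM in knockout 1 to 3, against 63.8, 14.5 and 19.7 CPM in wild-type 1 to 3. Rtp4, a receptor chaperone, measured 11.4, 67.0 and 27.9 CPM in the knockout, against 87.2, 26.5 and 29.9 CPM in the wild type. Ifi27l2a, a small interferon-induced protein, measured 5.31, 12.7 and 6.77 CPM in the knockout, against 12.2, 3.45 and 3.04 CPM in the wild type. All 3 genes were high in knockout 2 and wild-type 1, and knockout values lay both below and above wild-type values. The log2 fold changes were 0.05 (SE 0.89) for Ifi44, -0.44 (SE 0.68) for Rtp4 and 0.40 (SE 0.59) for Ifi27l2a, and the edgeR adjusted p were 0.986, 0.834 and 0.822. Xaf1, a proapoptotic zinc finger gene, had -0.29 (SE 0.73) and Ifi35, a leucine zipper protein, -0.18 (SE 0.30).

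Between knockout and wild-type tumours, no difference in any of the 33 genes passed the test. edgeR's quasi-likelihood test was run on 16281 genes, and 0 of the 33 passed an adjusted p of 0.05, beside 0.0% of all genes tested. At an unadjusted p under 0.05, 0 of the 33 genes were found in either direction, beside 6.63% of all genes tested that were higher and 4.12% that were lower in the knockout (10.7% in all). DESeq2 and limma-voom also called 0 of the 33, where DESeq2 called 1.48% of genes higher and 0.576% lower and limma-voom 0.0% in each direction. For 0 of the 33 genes did the groups fail to overlap, beside 9.43% of all genes tested with the knockout higher and 8.47% with it lower (17.9% in all). The log2 fold change was below 0 for 26 of the 33 genes, beside 52.1% of all genes tested, and the median was -0.20, beside -0.01 over all genes tested. The standard errors had a median of 0.57, beside 0.18 over all genes tested, so the fold changes of these genes were known less precisely than those of most genes. In 32 of the 33 genes the larger of the 2 group SDs exceeded the difference between the group means.

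**Figure D2:**
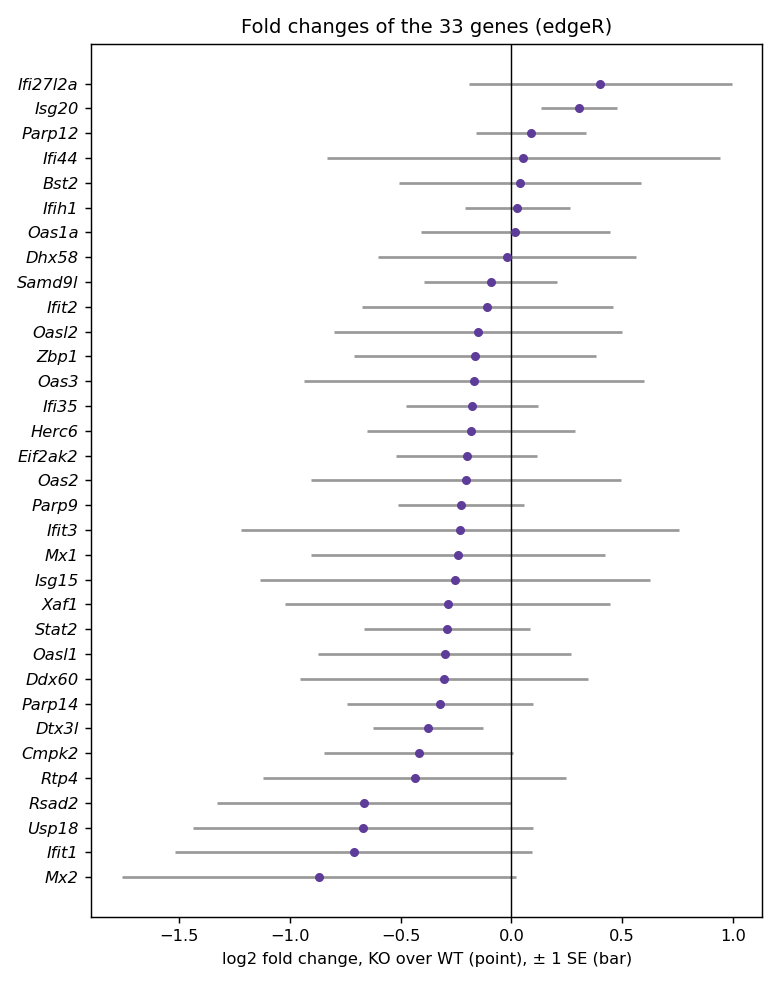
Log2 fold change of each of the 33 genes, knockout (KO) over wild type (WT), from edgeR (points) with 1 standard error to each side (bars). Values run from -0.87 for Mx2 to 0.40 for Ifi27l2a, 26 of 33 lie below 0, and most bars span 0.

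Within each genotype the 33 genes shared an order of libraries. Knockout 2 was the highest knockout library and wild-type 1 the highest wild-type library for 33 of 33 genes, beside 11.9% of all genes tested. The order knockout 1, knockout 3, knockout 2 from low to high held for 31 of the 33 genes, beside 12.1% of all genes tested. For the same 31 genes wild-type 1 was also the highest wild-type library, beside 6.34% of all genes tested. The exceptions were Usp18 and Ifi35, in which knockout 3 was slightly below knockout 1. Among the wild-type libraries, the order wild-type 2, wild-type 3, wild-type 1 held for 24 genes, beside 17.0% of all genes tested, and 23 genes had both orders, beside 2.58%. In the other 9, wild-type 3 was below wild-type 2, and the median difference between these libraries was small, at 0.20 log2 units. Knockout 2 and wild-type 1 were the 2 highest of all 6 libraries for 32 of the 33 genes, beside 5.98% of all genes tested, and the exception was Isg20. These orders are a description of 6 libraries, with no test.

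The differences between libraries were wide. Knockout 2 exceeded knockout 1 by a median of 3.67-fold over the 33 genes and knockout 3 by a median of 2.38-fold. Wild-type 1 exceeded wild-type 2 by a median of 2.63-fold and wild-type 3 by a median of 2.26-fold. Across genotypes, knockout 2 and wild-type 1 lay close together, with knockout 2 above wild-type 1 for 13 genes and a median difference of -0.07 log2 units. Knockout 3 likewise lay close to wild-type 2, being higher for 18 genes with a median difference of 0.02 log2 units, and close to wild-type 3, being higher for 14 genes with a median difference of -0.10. Knockout 1 was lower than wild-type 2 for 29 genes and lower than wild-type 3 for 31 genes, by medians of -0.68 and -0.71 log2 units. For all genes tested, the median difference between any of these pairs was no more than 0.03 log2 units in size.

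The highest of the 6 libraries exceeded the lowest at least 4-fold for 18 of the 33 genes, beside 4.33% of the 12416 tested genes with a mean of at least 5 CPM. Within the knockout, the highest library exceeded the lowest by a median of 4.02-fold, against 1.24-fold for these 12416 genes. Within the wild type it did so by a median of 2.63-fold, against 1.25-fold. The extremes within the knockout were Ifi44 at 13.2-fold and Isg20 at 1.32-fold, and within the wild type Ifit3 at 5.94-fold and Isg20 at 1.19-fold.

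Genes that swung widely in one genotype tended to do so in the other. The difference between knockout 2 and knockout 1 ran from 0.40 log2 units for Isg20 to 3.70 for Ifi44, and the difference between wild-type 1 and wild-type 2 from 0.24 for Isg20 to 2.57 for Ifit3. Across the 33 genes these differences had a Pearson correlation of 0.762 and a Spearman correlation of 0.726, and with wild-type 3 in place of wild-type 2 these were 0.564 and 0.641. This is a description across genes of 4 libraries, and genes are not independent replicates. Over the 12416 tested genes of at least 5 CPM the Pearson correlation was 0.307 and the Spearman correlation 0.183. The library pairs are those that were high and low in most of the 33 genes, so the comparison with all genes is uneven. Low-level genes swung more than high-level ones, with a Pearson correlation of -0.365 between the mean log2 CPM and the knockout difference and of -0.518 for the wild-type difference. Ifit2 stood apart, with a wide swing in the knockout (5.65-fold from lowest to highest) and a narrow one in the wild type (1.56-fold), where wild-type 2 and 3 were already at 81.8 and 102 CPM.

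**Figure D3:**
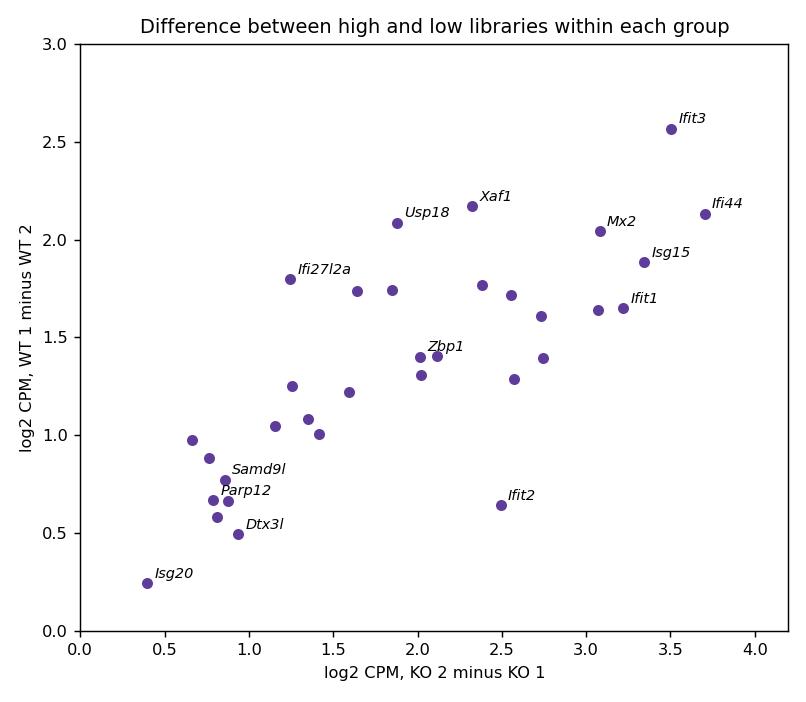
Each point is 1 of the 33 genes; the horizontal axis gives the difference in log2 CPM between knockout (KO) 2 and KO 1, the vertical axis that between wild-type (WT) 1 and WT 2. The points run from Isg20 at the lower left (0.40 and 0.24) to Ifit3 and Ifi44 at the upper right, and Ifit2 lies below the trend.

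Genes outside the set with the most similar pattern were looked for among 13828 other tested genes that averaged 1 or more in log2 CPM. Likeness was measured as the root mean square difference, over the 6 libraries, between the mean-centred log2 CPM of a gene and that of the average of the 33. The median over other genes was 0.746, and the 10 nearest lay between 0.151 and 0.225. They were Chn1os3, Gm5431, Gbp3, Gm26797, Irf7, Trim30a, Phf11d, Rnf213, A930037H05Rik and Phf11b. Of these, 4 were in the pathway lists described below. Irf7, the factor that drives later rounds of interferon transcription, measured 39.2, 148 and 64.7 CPM in knockout 1 to 3, against 155, 42.9 and 63.8 CPM in wild-type 1 to 3. Rnf213, an interferon-inducible ubiquitin ligase, measured 155, 405 and 259 CPM in the knockout, against 666, 281 and 264 CPM in the wild type. Among the 60 nearest genes, 21 were in those lists. The share of all 13828 ranked genes in those lists was not counted, and the lists were chosen with earlier results known. Trim21 ranked 156, with a root mean square difference of 0.473, and its libraries followed the same order within the knockout, with wild-type 1 the highest of the wild type.

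The pathway upstream of the 33 genes was read from lists of ligands, receptors and kinases, transcription factors, nucleic acid sensors and negative regulators. In no list did any gene pass edgeR's test in either direction. The ligands were barely detected. Of 20 interferon genes, 12 had 0 reads in every library, which allows at most 0.165 CPM in a knockout library and 0.111 CPM in a wild-type library, from counting error only, and 0 of the 20 reached the filter. Ifnb1 had 0 reads in every knockout library, against 10, 0 and 2 reads in wild-type 1 to 3. Ifna4 and Ifnl2 had 0 reads in every knockout library, against 6 and 7 reads in wild-type 1 and 0 in wild-type 2 and 3. Over all 20 ligands, interferon gamma included, reads were 0, 3 and 14 in knockout 1 to 3, against 45, 9 and 11 in wild-type 1 to 3. In summed CPM this was 0, 0.165 and 0.724 in the knockout, against 1.51, 0.305 and 0.408 in the wild type. At these counts no group difference in ligands was detectable.

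Receptors and kinases did not share the highest libraries of the 33 genes. The 9 genes summed to 965, 1057 and 1156 CPM in knockout 1 to 3, against 1050.5, 1053 and 1005 CPM in wild-type 1 to 3. For 0 of 9 were knockout 2 and wild-type 1 the highest of their groups, beside 11.9% of all genes tested. With only 9 genes, this count lies near that share. Ifnar1 measured 104, 108 and 117 CPM in the knockout, against 118, 109 and 107 CPM in the wild type. The smallest unadjusted p were those of Il10rb, a shared chain of the interferon lambda receptor (log2 fold change 0.21, SE 0.08), and of Ifnlr1, its specific chain (-0.29, SE 0.13), with edgeR adjusted p of 0.444 and 0.474. Ifnlr1 measured 29.9, 30.8 and 32.3 CPM in the knockout, against 44.0, 35.7 and 34.1 CPM in the wild type.

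Of the 7 transcription factors, 4 had knockout 2 and wild-type 1 highest, among them Irf7 and Irf9, beside 11.9% of all genes tested. Irf9, the DNA-binding part of ISGF3, measured 49.5, 103 and 74.8 CPM in knockout 1 to 3, against 144, 78.1 and 72.0 CPM in wild-type 1 to 3. Irf8, a factor of myeloid cells, measured 52.1, 45.0 and 44.5 CPM in the knockout, against 25.7, 43.8 and 43.4 CPM in the wild type, and wild-type 1 was its lowest library. The log2 fold changes were -0.37 (SE 0.34) for Irf9 and 0.33 (SE 0.21) for Irf8, and the edgeR adjusted p were 0.701 and 0.590.

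Among 11 genes of nucleic acid sensing, 4 had the same highest libraries as the 33 genes, beside 11.9% of all genes tested. Sting1, the adaptor of cytosolic DNA sensing, measured 70.6, 90.2 and 71.6 CPM in knockout 1 to 3, against 161, 99.3 and 93.9 CPM in wild-type 1 to 3. Cgas, the DNA sensor that signals to it, measured 14, 14.1 and 13.5 CPM in the knockout, against 17.9, 16.4 and 17.0 CPM in the wild type. In both genes every knockout library lay below every wild-type library, as in 8.47% of all genes tested. Neither passed edgeR's test, with log2 fold changes of -0.61 (SE 0.22, adjusted p = 0.418) for Sting1 and -0.30 (SE 0.13, adjusted p = 0.461) for Cgas. Of 5 negative regulators, Socs3, a feedback inhibitor of cytokine receptors, measured 64.8, 61.9 and 64.6 CPM in the knockout, against 95.6, 119.5 and 77.1 CPM in the wild type. Every knockout library again lay below every wild-type library, with a log2 fold change of -0.61 (SE 0.16) that did not pass edgeR's test (adjusted p = 0.343). Socs1 was at a low level, at 0.645, 1.04 and 0.931 CPM in the knockout, against 2.21, 1.69 and 0.927 CPM in the wild type, with a log2 fold change of -0.88 (SE 0.45, edgeR adjusted p = 0.516).

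Of 30 further interferon-stimulated genes, among them Trim21 itself, 29 were tested. For 28 of these 29 knockout 2 and wild-type 1 were the highest libraries of their groups, and the exception was Ifit1bl2 (log2 fold change 0.83, SE 0.38, edgeR adjusted p = 0.485). Of 14 genes known for induction by interferon gamma, 7 had knockout 2 and wild-type 1 highest in their groups, beside 11.9% of all genes tested. The order knockout 1, knockout 3, knockout 2 from low to high held for 10 of the 14, beside 12.1% of all genes tested. The median of their mean-centred log2 CPM was -0.78, 0.60 and 0.46 in knockout 1 to 3, against 0.20, -0.08 and -0.34 in wild-type 1 to 3. For the 33 genes the same medians were -0.98, 0.99 and -0.27 in the knockout, against 0.96, -0.30 and -0.18 in the wild type. Knockout 3 exceeded wild-type 1 for 10 of the 14 interferon gamma genes but for 1 of the 33 genes, beside 47.8% of all genes tested; this contrast of libraries was chosen after their values were seen and was not tested. Cxcl9, a chemokine that attracts T cells, measured 0.893, 13.8 and 26.7 CPM in knockout 1 to 3, against 6.67, 6.2 and 4.89 CPM in wild-type 1 to 3 (log2 fold change 1.22, SE 0.89, edgeR adjusted p = 0.633). Psmb8, an immunoproteasome subunit, had a log2 fold change of 0.38 (SE 0.31, edgeR adjusted p = 0.676).

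**Figure D4:**
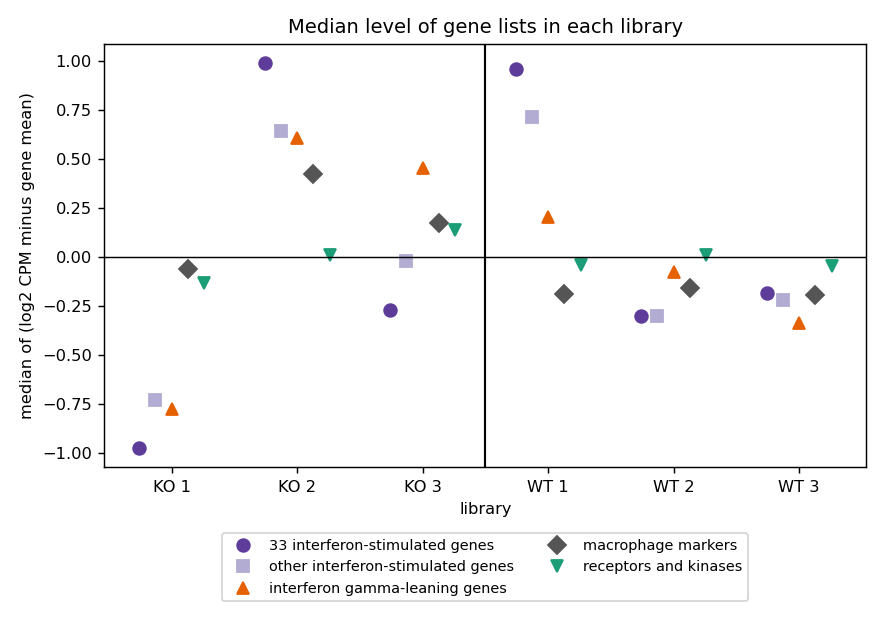
Median, over the genes of a list, of log2 CPM minus the gene's mean over the 6 libraries, for each knockout (KO) and wild-type (WT) library. The 33 genes and the other interferon-stimulated genes are high in KO 2 and WT 1, interferon gamma-leaning genes are high in KO 2 and KO 3, receptors and kinases stay near 0, and macrophage markers are highest in KO 2.

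Bulk tissue does not separate more cells of a type from more RNA per cell, so markers of the cells a tumour can hold were summed in each library. The 10 macrophage markers, all 10 tested, summed to 729, 956 and 901 CPM in knockout 1 to 3, against 645, 733 and 697 CPM in wild-type 1 to 3. The sum was highest in knockout 2 and lowest in wild-type 1. Its largest part was Lyz2, at 366, 450 and 451 CPM in knockout 1 to 3, against 290, 355 and 337 CPM in wild-type 1 to 3. The median of the markers' mean-centred log2 CPM did not set wild-type 1 apart. It was -0.061, 0.425 and 0.174 in knockout 1 to 3, against -0.192, -0.158 and -0.195 in wild-type 1 to 3. At an unadjusted p under 0.05, 5 of the 10 were higher in the knockout, as were 3 of 5 endothelial, 3 of 5 smooth muscle, 2 of 7 B and plasma cell and 2 of 6 fibroblast markers, beside 6.63% of all genes tested. None of the markers passed edgeR's test after adjustment. The 10 epithelial markers summed to 9243, 8924 and 9244 CPM in the knockout, against 7906, 8522 and 8994 CPM in the wild type. Siglech, the defining marker of plasmacytoid dendritic cells, which are strong producers of interferon, had 0, 4 and 6 reads in the knockout, against 2, 14 and 9 reads in the wild type. The 7 genes of that list summed to between 587 and 734 CPM in the knockout, against between 423 and 605 CPM in the wild type, and 1 of them, Bst2, is among the 33. Most of that sum came from Klk1 and Tcf4, which other cells also express. Klk1 measured 313, 242 and 444 CPM in knockout 1 to 3, against 46.0, 174 and 96.5 CPM in wild-type 1 to 3, and Tcf4 measured 226, 327 and 248 CPM in the knockout, against 472, 303 and 251 CPM in the wild type. Ly6d had a log2 fold change of -1.13 (SE 0.16), so the genes of the list did not share a direction.

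The 6 neutrophil markers summed to 118, 170.2 and 239 CPM in knockout 1 to 3, against 288, 247 and 115 CPM in wild-type 1 to 3. The 8 T and natural killer cell markers found summed to between 11.7 and 24.7 CPM in the knockout, against between 8.09 and 16.3 CPM in the wild type, and the 7 conventional dendritic cell markers to between 21.7 and 41.5 CPM, against between 23.7 and 33.3 CPM. In that last list knockout 2 was the highest of the 6 libraries. Wild-type 1 stood apart in other ways as well. The 5 smooth muscle markers summed to 1010.0, 599 and 704 CPM in knockout 1 to 3, against 168, 563 and 401 CPM in wild-type 1 to 3. The 7 B and plasma cell markers summed to 1209, 1867 and 3447 CPM in the knockout, against 487, 867 and 920.4 CPM in the wild type. Wild-type 1 was the lowest of the 6 libraries in both lists. In both lists every knockout sum also lay above every wild-type sum, which was not tested. By single gene this held for 2 of 5 smooth muscle and 2 of 7 B and plasma cell markers, beside 9.43% of all genes tested. It also held for 6 of 10 macrophage, 3 of 5 endothelial, 2 of 10 epithelial and 1 of 6 fibroblast markers. The sums of those lists overlapped between the groups, so separation by single gene was not particular to the smooth muscle and B and plasma cell lists. The fibroblast sums were 1549 to 2224 CPM in the knockout, against 1070.0 to 1636 CPM in the wild type. The endothelial sums were 205 to 274 CPM in the knockout, against 179 to 227 CPM in the wild type. No marker in any of these lists had 0 reads in all 6 libraries, and the part of any of these cells in the level of the 33 genes was not tested.

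The direction of the group comparison depended on single libraries. Without knockout 2, the median log2 fold change of the 33 genes was -0.89, 32 of 33 lay below 0 and 10 had an unadjusted p under 0.05, all lower in the knockout, beside 2.63% of all genes. These 10 were Isg15, Ifit1, Ifit2, Oas3, Oasl1, Mx2, Rsad2, Cmpk2, Ddx60 and Dtx3l, and the smallest adjusted p of the 33 was 0.648 (edgeR). Without wild-type 1, the median was 0.33, 4 of 33 lay below 0, and 1 gene, Ifi27l2a, had an unadjusted p under 0.05, higher in the knockout, beside 5.18% of all genes. Without knockout 1 the median was 0.13. It was -0.04 without knockout 3, -0.46 without wild-type 2 and -0.39 without wild-type 3. The median thus changed sign without knockout 1 or without wild-type 1.

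**Figure D5:**
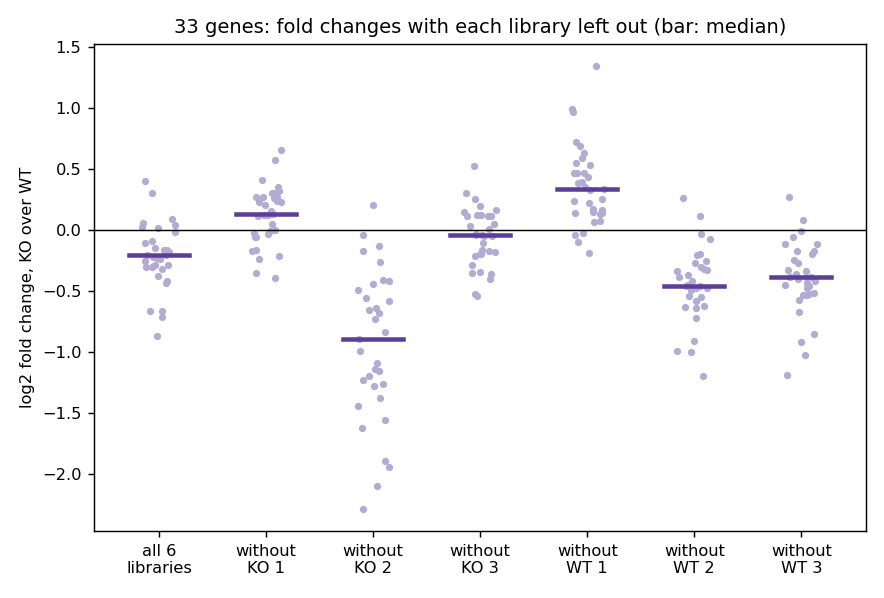
Log2 fold change of each of the 33 genes, knockout (KO) over wild type (WT), with all 6 libraries and with each library left out (points, spread sideways for legibility), and their median (bar). The median is -0.20 with all libraries, -0.89 without KO 2 and 0.33 without WT 1.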

How the data were processed

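RNA was sequenced from 3 Trim21 knockout and 3 wild-type tumour samples, grouped by the labels' titles. The authors deposited whole-number read counts per gene symbol, with no row lacking a name. Per the submitters' processing notes, mm10, TopHat2, edgeR and limma were used; no source used here gives the counter, the strand setting, the annotation or versions. None of the 33 genes shared all 6 counts with another row. Replicates differed by more than sampling noise (chi-square per degree of freedom 22.0 to 109), so all were kept.

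In R 4.3.3, counts were scaled by TMM factors, filtered with filterByExpr by group (16281 genes kept) and tested with edgeR 4.0.16's quasi-likelihood test, group as the only term, two-sided, with Benjamini-Hochberg adjustment over all genes. CPM is relative to the TMM-scaled library size; log2 CPM uses a prior count of 2, except in the plot of each gene by library, which uses none. The SE is the log2 fold change over the square root of F. Alternatives were DESeq2 1.42.0, limma-voom (limma 3.58.1), other scalings and filters, a replicate block and leaving out each library. The edgeR step was tested on simulated data. Exon lengths and positions come from GENCODE M21, promoters from RefSeq. The list symbols Mb21d1 and Tmem173 were matched to Cgas and Sting1 through RefSeq synonyms, and Trac was not found under any symbol.

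The 33 genes, the lists and the tests were chosen with earlier results of these data known. Values in every library are given for the most abundant member and the member of smallest unadjusted p in each role, for the 3 with the widest and the 3 with the narrowest range, and for Isg15, which was added afterwards. Of other genes, the 10 nearest in pattern and up to 2 per pathway list are named, with a few added for their role after their values were seen.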

Additional observations from a re-analysis of the deposited data

How the results depend on the processing

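The count of genes called over all genes was 336 with DESeq2, and it was 0 with limma-voom, RLE scaling, library totals, no low-count filter, a minimum of 1 CPM in 3 libraries, and the replicate block. With single libraries left out it lay between 0 and 1. The 1 gene, the Y-linked Eif2s3y, was called higher in the knockout without wild-type replicate 3. The labels do not state the sex of the mice, and whether it differed between the libraries was not tested. None of the 33 genes was called under any of these settings. The number of the 33 with an unadjusted p under 0.05 lay between 0 and 10 with single libraries left out, being 10 when knockout replicate 2 was omitted and 1 when wild-type replicate 1 was, and was 0 under all other settings. Their median log2 fold change lay between -0.34 (limma-voom) and -0.19 (CPM filter) over the tests, scalings, filters and the block, and between -0.89 and 0.33 with single libraries left out. The replicate number as a block gave a median of -0.28 and 0 genes called. Deviations from the group means of same-numbered libraries correlated at -0.147, -0.175 and -0.0734, and no library correlated best with its own number. The numbers are therefore not taken to pair the samples. The orders of the libraries, in 31 and 24 genes, held in as many genes under both other scalings and both filters. This was close to fixed in advance. The TMM factors lay between 0.977 and 1.016, and a filter on rows hardly alters the order of libraries within a gene. Depth differed between the groups, and 3 libraries per group limit what the comparison can show.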
